A study of Mus musculus with 41 samples.

Results

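Spleens lacking both p53 and NOS2 were compared with and without C. parvum, on 12 of the 41 arrays of the series. The treated group held 6 arrays of p53-/-NOS2-/- mice given C. parvum, the name used in inflammation research for a killed bacterial preparation (Corynebacterium parvum). The control group held 6 arrays of p53-/-NOS2-/- mice given saline, so both groups carry the 2 deletions, and this genotype is called DKO below. The arrays were chosen by their titles. Responses in the other genotypes were used for comparison only: WT (p53+/+NOS2+/+, 5 C. parvum and 5 control arrays), NOS2KO (p53+/+NOS2-/-, 5 and 5) and p53KO (p53-/-NOS2+/+, 5 and 4). All mice were C57BL, and total spleen RNA was labelled with biotin as cDNA and hybridised to a one-channel miRNA microarray. The labels give no age, dose or time after treatment. The design text counts 4 or 5 mice to a group and names wild type and single knockouts without the double knockout. Whether each of the 12 arrays is a separate mouse is therefore not stated. The p-values measure the spread between arrays within groups, estimated over all 41 arrays unless only DKO arrays are named.

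p53 (gene Trp53) is a transcription factor that stress signals activate, and NOS2 makes nitric oxide in activated macrophages. A miRNA is a short RNA that lowers the output of messenger RNAs, chosen mainly by the seed, bases 2 to 8 counted from its 5′ end. In the spleen, several miRNAs are known for the cells that hold them: miR-223 for granulocytes and monocytes, miR-451 and miR-486 for red cell precursors, miR-150 and the miR-181 family for lymphocytes, miR-126 for endothelium and miR-145 for smooth muscle. In bulk spleen RNA, fewer cells of a type and less RNA per cell cannot be told apart.

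The miRNAs on which the results turned fall into a few seed groups, and the mature sequences are shown so that probes for near-identical RNAs can be recognised. Capitals mark the seed. They are RefSeq sequences of build GRCm38.p6. The array's own probe sequences were not used here, and most probe names give no arm, so the arm shown is the one usually abundant.
miR-223-3p: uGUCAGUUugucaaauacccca
miR-342-3p: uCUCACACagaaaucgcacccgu
miR-26a-5p: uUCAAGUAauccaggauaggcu
miR-26b-5p: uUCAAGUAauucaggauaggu
miR-29a-3p: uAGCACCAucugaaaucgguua
miR-29b-3p: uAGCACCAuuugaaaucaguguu
miR-29c-3p: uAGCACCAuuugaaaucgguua
miR-218-5p: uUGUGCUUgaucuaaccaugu
miR-181a-5p: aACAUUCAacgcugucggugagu
miR-181c-5p: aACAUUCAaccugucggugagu
miR-135a-5p: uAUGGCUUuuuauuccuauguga
miR-26a and miR-26b share the seed UCAAGUA and differ at 2 bases over their shared length. miR-29a, miR-29b and miR-29c share AGCACCA, with 1 difference between miR-29a and miR-29c, 3 between miR-29b and miR-29c and 4 between miR-29a and miR-29b. Relatives that differ so little may be read by each other's probes, and the extent of this was not tested.

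In the genome, miR-223 lies on chrX:96242884-96242905 (+) outside protein-coding genes. miR-342 lies within Evl at chr12:108658680-108658702 (+). The miR-26 loci sit within 3 related phosphatase genes: miR-26a-1 in Ctdspl at chr9:119031811-119031832 (+), miR-26a-2 in Ctdsp2 at chr10:126995543-126995564 (+) and miR-26b in Ctdsp1 at chr1:74394324-74394344 (+). miR-29b-1 (chr6:31063025-31063047) lies beside miR-29a (chr6:31062673-31062694) on the minus strand, and miR-29b-2 (chr1:195037091-195037113) beside miR-29c (chr1:195037600-195037621) on the plus strand. None of these miR-29 loci lies within a protein-coding gene. miR-218 has a copy within Slit2 at chr5:48223966-48223986 (+) and another within Slit3 at chr11:35616840-35616860 (+).

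Levels below are quantile-normalized log2 signals, changes are C. parvum minus control on that scale with their standard error (SE), and "called" means a Benjamini-Hochberg adjusted p under 0.05 in limma. Most probe names end in -a or -p. What these endings stand for is not stated by the labels or the table. Names are printed without the -a and with the -p. Probes with at least 3 values in both DKO groups were tested, which left out 260 probes. In all, 280 had a value on all 12 arrays and 65 on none. DKO arrays gave 339 to 425 values after C. parvum and 391 to 464 in controls.

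The arrays fell into 2 sets that the labels do not name. They are told apart by the deposited level of 1 probe, miR-370, which was 8.35 to 9.32 on every array of set 1 and 11.1 to 12.4 on every array of set 2, across all 41 arrays. In DKO, C. parvum 1 to 5 belonged to set 2 and C. parvum 6 to set 1, whereas controls 1 to 5 belonged to set 1 and control 6 to set 2. All WT arrays belonged to set 1 and all p53KO arrays to set 2. Treatment and set were therefore nearly parallel in DKO, and the main changes below are given in 2 forms, without the set and with the set as a term of the fit. The fit with the set drew its set difference from the DKO arrays and from the NOS2KO C. parvum group, the only other group with both sets. The set term was called for 50 of 372 probes (13.4%), 33 higher (8.87%) and 17 lower (4.57%) in set 2.

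Without the set, C. parvum changed 53 probes (14.1% of those tested), 30 higher (7.96%) and 23 lower (6.1%). With the set, 11 of 372 probes (2.96%) were called, 6 higher (1.61%) and 5 lower (1.34%), and all 11 were among the 53. The probe that defines the sets was left out of the second fit, so 52 calls could be compared: 11 kept their call and 41 lost it. Of those 41, 20 retained at least 0.75 of their size, 13 retained 0.5 to 0.75, 6 retained less than 0.5 and 2 turned sign. Over all probes tested, the median change was 0.06 without the set and 0.01 with it. The balance of calls without the set depended on the scaling, with 30 higher and 23 lower as normalized (56.6% higher), 18 and 9 on the values as deposited (66.7%) and 31 and 9 after median centring (77.5%).

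**Figure D1:**
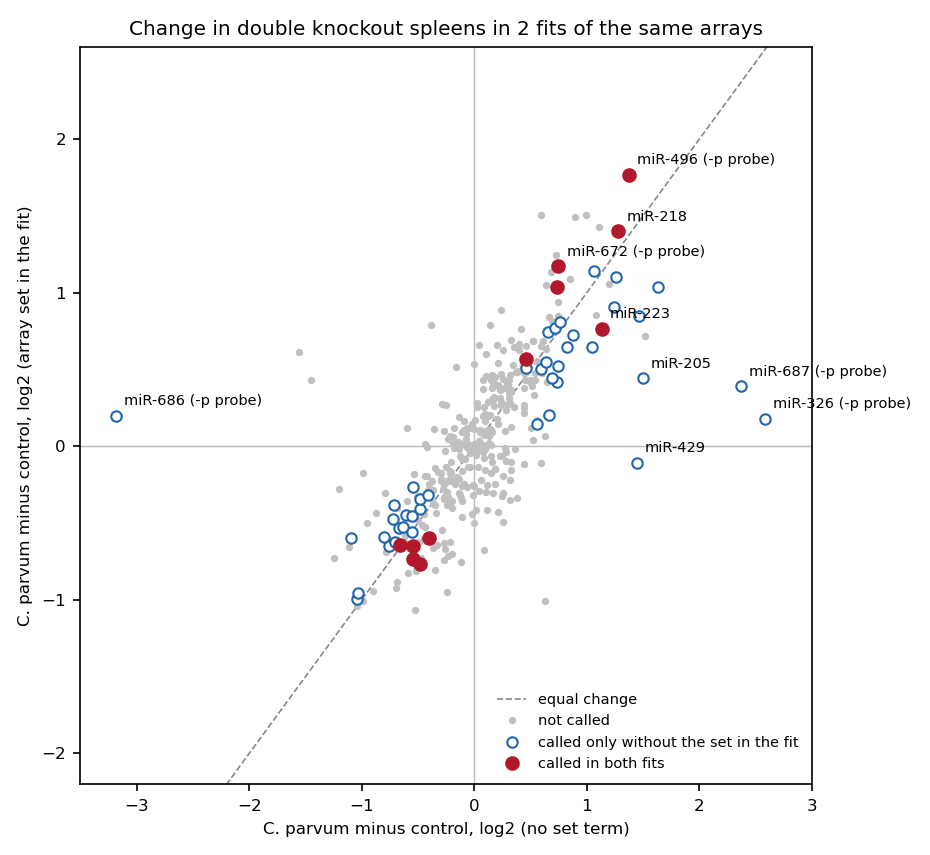
Change with C. parvum in DKO spleens (log2), without the array set on the x axis and with it on the y axis, 1 point per probe. The 11 probes called in both fits (filled red) lie on both sides of the dashed line of equal change. Their size with the set was 0.68 (miR-223) to 1.58 (miR-29b) of that without it. The -p probes of miR-326, miR-687 and miR-686 and miR-429 (open blue) lie near 0 on the y axis.

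The myeloid miRNA miR-223 rose with C. parvum in DKO spleens, and so did miR-342, which is known from lymphoid and myeloid cells. miR-223 had levels of 14.80, 15.29 and 15.73 (lowest, median and highest of 6) after C. parvum and 14.04, 14.21 and 14.35 in controls. The 2 groups did not overlap, as was so for 22 of 378 probes (5.82%), and the lowest treated array was the one of set 1. The change was 1.13 ± 0.17, a 2.19-fold rise (adjusted p = 3.38e-05), and 0.77 ± 0.18, or 1.7-fold, with the set (adjusted p = 0.0115). The set term for miR-223 was itself called, at 0.55 ± 0.15 higher in set 2 (adjusted p = 0.0113). Without control 6 its change with the set was 0.50 and was not called (adjusted p = 0.132).

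miR-342 levels were 15.55, 15.73 and 15.98 after C. parvum and 15.03, 15.30 and 15.42 in controls, with no overlap. The change was 0.46 ± 0.10 (adjusted p = 0.00182), and 0.57 ± 0.12 with the set (adjusted p = 0.00423), while the set term was not called (adjusted p = 0.359). It was called in both fits under all 3 scalings, and in all 24 fits that left out 1 DKO array (12 arrays, with and without the set). Only miR-223 among the other kept probes was called in both fits under all 3 scalings, and it was called in 23 of those 24 fits. When only the 12 DKO arrays were fitted with the set, miR-342 was not called (0.55, adjusted p = 0.121), whereas miR-223 was (0.92, adjusted p = 0.0427) and so was the miR-672 -p probe (1.46, adjusted p = 0.014). The other 8 kept probes were not called in that fit either. Both miRNAs are among the brightest on the array, where normalized levels fall on shared steps since arrays take the same value at the same rank.

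The miR-26 family fell. miR-26a and miR-26b are abundant in many differentiated cells. miR-26a-2 had levels of 13.51, 13.88 and 14.04 after C. parvum and 14.21, 14.51 and 14.66 in controls, with every treated array below every control. Its change was −0.66 ± 0.13 (adjusted p = 0.00107) and −0.64 ± 0.16 with the set (adjusted p = 0.0133). The miR-26a-1 probe, for the same mature RNA, changed by −0.55 (adjusted p = 0.00398) and by −0.45 with the set, which was not called (adjusted p = 0.0977).

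miR-26b fell by 0.54 ± 0.11 on the log2 scale (adjusted p = 0.00107), and by 0.65 ± 0.12 with the set (adjusted p = 0.00266). Its levels were 15.17, 15.36 and 15.55 after C. parvum and 15.55, 15.98 and 15.98 in controls, where 5 of 6 arrays sat on the same step. That fall rested on the normalization. On the values as deposited the change was −0.15 (adjusted p = 0.429), and after median centring −0.08 (adjusted p = 0.721). The miR-26a-2 change was called without the set under both of those scalings, at −0.63 and −0.57, and with the set its size was −0.42 after centring (adjusted p = 0.104).

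Members of the miR-29 family, known for repressing collagen genes and raised in quiescent and mature cells, were lower after C. parvum at every -a probe tested. Of these 5 probes, 4 were called without the set and 3 with it, where 6.1% and 1.34% of all tested probes were called lower. The family median was −0.48 without and −0.60 with the set. The 3 called with the set are all named for miR-29b, whose genes give the same mature sequence. All 5 are for closely related RNAs and do not count as independent. miR-29b-1 had levels of 10.41, 10.56 and 10.68 after C. parvum and 10.64, 11.12 and 11.40 in controls, overlapping at 1 control array. It fell by 0.54 on the log2 scale (adjusted p = 0.0165), and by 0.73 ± 0.18 with the set (adjusted p = 0.0121). miR-29b fell by 0.48, and by 0.77 ± 0.18 with the set (adjusted p = 0.0121). miR-29b-2 fell by 0.40, and by 0.60 ± 0.15 with the set (adjusted p = 0.0199).

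miR-29a changed by −0.55 (adjusted p = 0.0215) and by −0.56 with the set, no longer called (adjusted p = 0.0977). miR-29c was at −0.22 and −0.21 and was called in neither fit. The 4 falls without the set were not called on the values as deposited or after centring, where they lay between −0.31 and −0.52. All 3 -p probes of the family were positive, with a median of 0.33 and none called. Changes of the miR-29b probes were also negative in the other genotypes, with miR-29b-1 at −1.04 in WT, −0.87 in NOS2KO and −0.58 in p53KO. miR-29c was at −0.90 in WT, −0.98 in NOS2KO and −0.84 in p53KO. Its DKO change lay above the mean of those 3 by 0.69 (adjusted p = 0.0284). With the set that difference was not called (adjusted p = 0.124).

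The remaining 4 kept probes were dimmer or of less certain identity. miR-218, whose genes lie within the Slit axon guidance genes, had levels of 7.06, 7.29 and 7.60 after C. parvum and 5.23, 5.89 and 7.28 in controls. It rose by 1.28 ± 0.31 (adjusted p = 0.00523), and by 1.40 ± 0.37 with the set (adjusted p = 0.0286). This probe was dim, and its rise was not called on the values as deposited (0.64) or after centring (0.70). It could not be tested in WT, where none of the 5 treated arrays had a value. Its change was −0.59 in NOS2KO and −0.004 in p53KO, neither called. The DKO control mean of 6.05 was the lowest of the groups with values, the others lying between 7.17 (WT control) and 8.33 (p53KO control).

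The miR-496 -p probe, from the imprinted Dlk1-Dio3 cluster, rose by 1.37 ± 0.41 (adjusted p = 0.0284), and by 1.77 ± 0.49 with the set (adjusted p = 0.0417), with a value on 5 of 6 treated arrays. It was not called in either fit on the values as deposited (0.89, adjusted p = 0.172, and 1.29 with the set, adjusted p = 0.143) or after centring (adjusted p = 0.137, and 0.104 with the set). With missing cells at the 1st percentile it was at 1.21 with the set (adjusted p = 0.262). The miR-672 -p probe had levels of 9.90, 10.14 and 10.82 after C. parvum and 8.30, 9.67 and 10.11 in controls. Its change grew to 1.17 ± 0.25 with the set, against 0.75 ± 0.23 without (adjusted p = 0.00449 and 0.0265), and the groups overlapped. Its set term was called too (adjusted p = 0.0368).

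The miR-801 -p probe rose by 0.74 (adjusted p = 0.0432), and by 1.04 ± 0.29 with the set (adjusted p = 0.04). RefSeq lists this gene as Rnu11, the U11 small nuclear RNA of the minor spliceosome. Its level stood apart by genotype more than by treatment. It averaged 11.74 ± 0.59 in DKO C. parvum and 11.01 ± 0.25 in DKO control arrays (SD, n = 6 each), against 8.69 to 9.22 for the means of the other 6 groups. That difference in level was not tested.

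**Figure D2:**
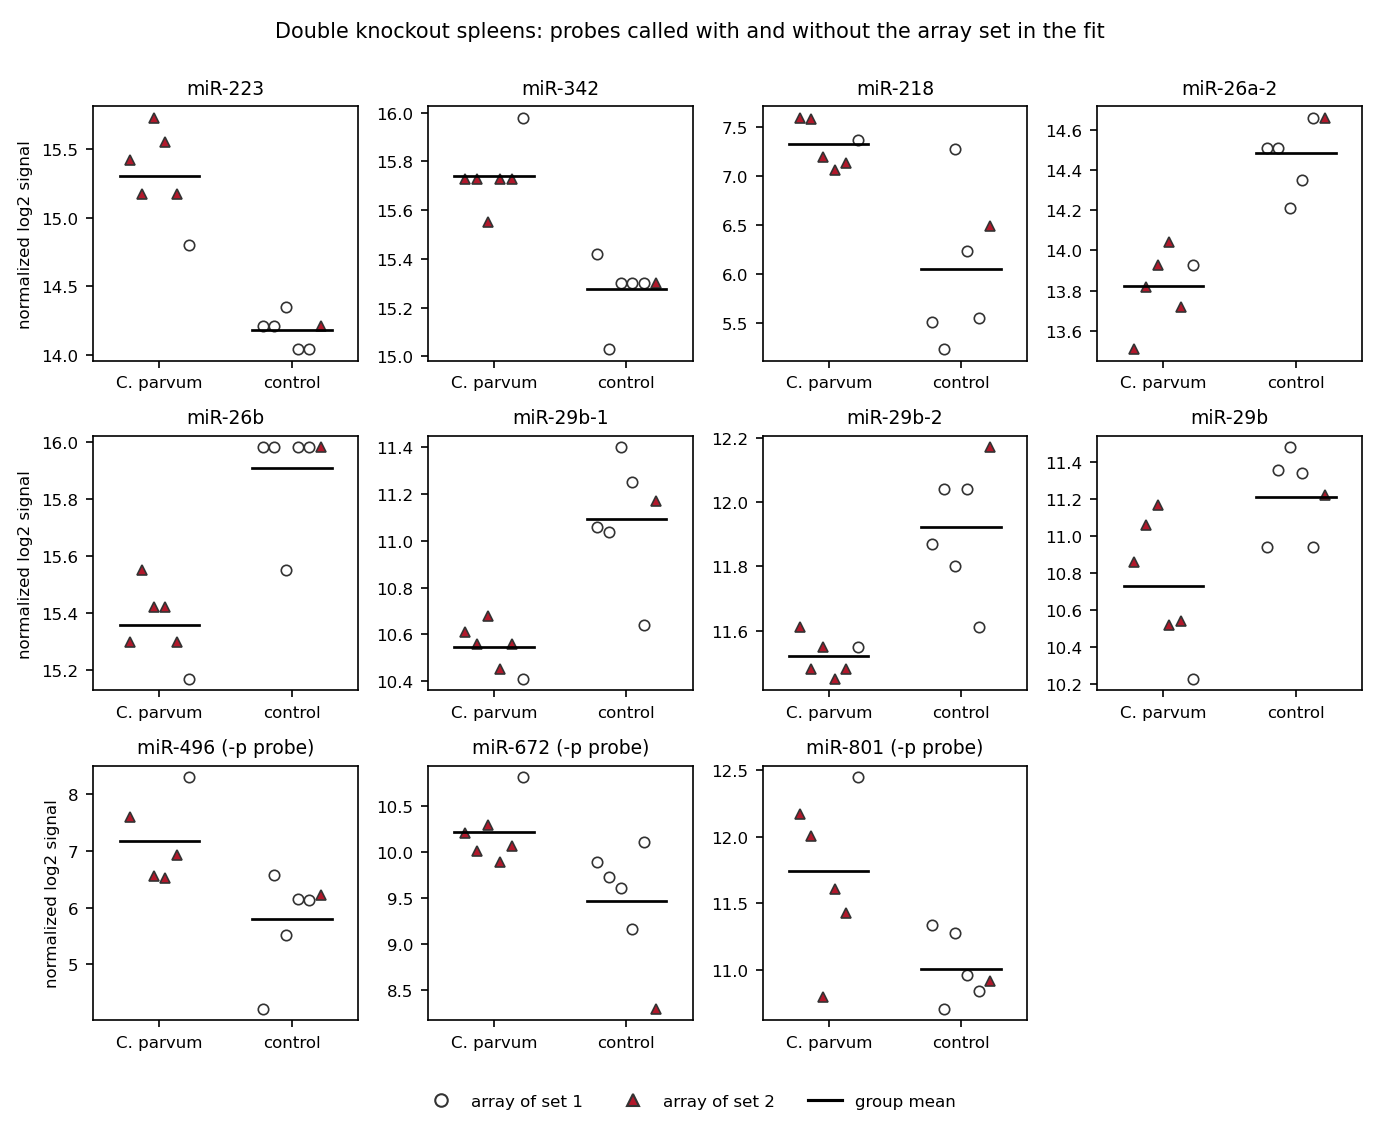
Normalized log2 signal on each DKO array, C. parvum left and control right, for the 11 probes called in both fits. Circles are arrays of set 1, triangles arrays of set 2 and bars group means. miR-223, miR-342 and miR-26a-2 show no overlap between groups, with the array of the opposite set on the side of its treatment.

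The array off the main pattern in each group gives a separate view within a set. Within set 1, C. parvum 6 is set against controls 1 to 5, and within set 2, C. parvum 1 to 5 against control 6. All 11 kept probes lay in the direction of their call in both sets. miR-223 was higher by 0.63 in set 1 and 1.2 in set 2, miR-342 by 0.71 and 0.39, and miR-218 by 1.41 and 0.83. miR-26a-2 was at −0.52 and −0.86, miR-26b at −0.72 and −0.58 and miR-29b-1 at −0.67 and −0.6. Of the 44 called probes with a value in both sets, 39 (88.6%) lay in direction in both. Among all 313 probes with both values, 156 (49.8%) had the same sign in both sets. These within-set values come from the same arrays as the calls and rest on 1 array on a side.

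The kept calls also leaned on the arrays numbered 6. With the set in the fit and both of those arrays left out, miR-342, miR-26b, miR-218 and the 3 miR-29b probes were still called. In that fit the treated DKO arrays are all of set 2 and the controls all of set 1. The DKO arrays then cannot separate set from treatment. The set difference comes from the NOS2KO C. parvum group alone, with 2 arrays of set 1 and 3 of set 2. The change of miR-223 was then 0.37 (adjusted p = 0.401), that of the miR-672 -p probe 0.43 (adjusted p = 0.489) and that of miR-26a-2 −0.52 (adjusted p = 0.206). Without C. parvum 6 alone, miR-29b (−0.67, adjusted p = 0.065), miR-218 (1.46, adjusted p = 0.053), the miR-801 -p probe (0.84, adjusted p = 0.152) and the miR-496 -p probe (1.29, adjusted p = 0.202) were not called with the set. Over the 24 fits with 1 DKO array left out, miR-26b was called in 24, miR-29b-1 in 23, miR-29b in 15, miR-29b-2 in 14, the miR-496 -p probe in 14 and the miR-801 -p probe in 10. A response score was also taken for each array, as the mean deviation of 65 probes called alike in WT and p53KO, with falling probes counted negatively. It was 0.12 to 0.36 on C. parvum 1 to 5 and −0.11 on C. parvum 6, against −0.38 to 0.01 on the 6 controls, so C. parvum 6 lay within the range of the controls.

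The largest changes without the set followed the array set instead. The miR-326 -p probe was at 8.25, 8.82 and 9.08 on the 5 treated arrays with a value, all of set 2. Its controls had 5.22, 5.28 and 5.55 on 3 arrays of set 1 and 8.56 on control 6, with no value on the other 2. The change of 2.58 (adjusted p = 0.000452) became 0.18 with the set (adjusted p = 0.746), and the set term was 3.21. The miR-687 -p probe gave 2.37, and 0.39 with the set, with control 6 at 7.85 and the other controls between 4.32 and 5.23.

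The miR-686 -p probe ran the other way. It was at 11.97 on C. parvum 6 and between 5.55 and 6.69 on the treated arrays of set 2, against 6.66 on control 6 and between 10.37 and 11.69 on the other controls. Its change of −3.19 became 0.20 with the set. The same probe differed by −5.55 between sets within the NOS2KO C. parvum group, where all arrays share genotype and treatment. miR-429, an epithelial miRNA of the miR-200 family, gave 1.44 and −0.11, and epithelial miR-205 gave 1.5 and 0.44. miR-370 itself changed by 1.71, and differed by 2.42 between sets within NOS2KO C. parvum. Other calls that retained less than 0.5 of their size were miR-181b-2, miR-186 and miR-15a.

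**Figure D3:**
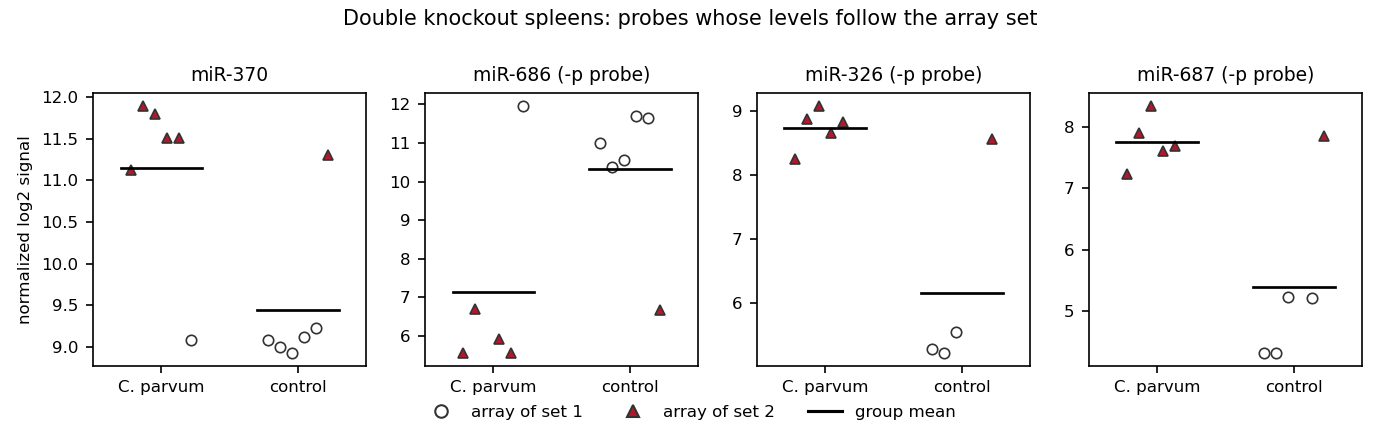
Normalized log2 signal of miR-370 and of the -p probes of miR-686, miR-326 and miR-687 on each DKO array, C. parvum left and control right; arrays without a value are not drawn. Circles (set 1) and triangles (set 2) separate in both groups for miR-370 and the miR-686 -p probe. For the -p probes of miR-326 and miR-687 they separate in controls, and C. parvum 6 has no value. The array numbered 6 sits with the opposite group wherever it has a value.

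Other calls kept 0.5 or more of their size with the set and were not called there. The proliferation pair miR-221 and miR-222, which share a transcript and restrain the cell cycle inhibitor p27, rose together. miR-222 had levels of 11.36, 11.84 and 11.97 after C. parvum and 10.09, 10.78 and 10.94 in controls, with no overlap. It rose by 1.05 (adjusted p = 0.00129), and was at 0.64 with the set (adjusted p = 0.103). miR-221 rose by 0.59 (adjusted p = 0.0265), and was at 0.50 with the set (adjusted p = 0.185). miR-21, a miRNA induced in inflammation and in many tumours, rose by 0.73 (adjusted p = 0.00855), and was at 0.42 with the set (adjusted p = 0.244).

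The counts of lists below are of -a and a/p probes, and of the -p probes of all lists only that of miR-496 was called. Of 5 lymphoid probes, 4 were called lower without the set, where 6.1% of all tested probes were, and none was called with it. Their median change was −0.63 without and −0.53 with the set. miR-181a-5p, which tunes T cell receptor signalling, had levels of 9.61, 9.96 and 10.61 after C. parvum and 10.66, 10.87 and 10.96 in controls. All treated arrays lay below all controls. It fell by 0.80 (adjusted p = 0.00182), and was at −0.59 with the set (adjusted p = 0.0977). Within set 1 its difference was −0.19 and within set 2 −1.05. miR-181c was at −0.63, miR-181b-1 at −0.72 and miR-181b-2 at −0.54, all called without the set. As deposited, miR-181b-1 (adjusted p = 0.0573) and miR-181c (adjusted p = 0.0545) were not called, nor was miR-181b-1 after centring (adjusted p = 0.0654). The lymphoid -p probes, of miR-181a-2 and miR-181c, were at −0.06 and −0.27, not called. The 4 miR-181 probes are for related RNAs with 1 seed and do not count as independent. miR-150 of mature lymphocytes was at −0.59 (adjusted p = 0.126) and at −0.82 with the set (adjusted p = 0.111). It was called without the set as deposited (−0.74, adjusted p = 0.0325) and after centring (−0.68, adjusted p = 0.0487).

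Endothelial miRNAs also fell in part, while the calls of the stromal and smooth muscle list had no common direction. Of 3 endothelial -a probes, 2 were called lower without the set, beside the 6.1% of all tested probes. miR-126*-5p fell by 0.67 (adjusted p = 0.00273) and miR-123 by 0.48 (adjusted p = 0.0297). With the set they were at −0.54 and −0.41, not called. The miR-123 -p probe was at 0.11, not called. miR-123 is an older name for a product of the miR-126 hairpin, so these probes are not independent. miR-145 fell by 0.60 (adjusted p = 0.022), and was at −0.45 with the set. Of 9 stromal probes it was the only one called lower. miR-497 was the only one called higher (0.46, adjusted p = 0.0475, and 0.51 with the set, not called). It was also the only 1 of the 9 with a positive change, and the list median was −0.2 without and −0.45 with the set. Of 16 progenitor and megakaryocyte probes, miR-99a (−0.70) and miR-126*-5p were called lower and none was called higher. Of these 16, 3 had a positive change, and the median was −0.28. Over all tested probes, 6.1% were called lower and 7.96% higher. The stromal and progenitor counts were not tested against these shares.

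Several other large changes were also called only without the set. Striated muscle miR-1 rose by 1.46 (adjusted p = 0.00855), with levels of 10.35, 10.71 and 10.99 after C. parvum and 7.92, 9.48 and 10.01 in controls, and was at 0.85 with the set (adjusted p = 0.24). Of the 3 muscle probes tested, miR-133a*-5p also rose, by 0.65. The embryonic miR-293 -p probe rose by 1.63, and was at 1.04 with the set. miR-720 fell by 1.10, miR-455-3p by 1.03, the miR-24-2 a/p probe by 0.76 and miR-203, known from skin, by 0.72. None of these 4 was called with the set.

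The 2 miR-135a probes went in opposite directions, although both genes give the mature RNA shown above (miR-135a-1 at chr9:106154140-106154162, plus strand, and miR-135a-2 at chr10:92072141-92072163, minus strand). miR-135a-1 was at 6.23, 7.03 and 7.37 on 5 treated arrays and 4.86, 5.6 and 6.40 in controls, overlapping, with a change of 1.26 (adjusted p = 0.0113). miR-135a-2 was at 7.04, 7.09 and 7.65 after C. parvum and 7.90, 8.32 and 8.43 in controls, not overlapping, with a change of −1.05 (adjusted p = 0.0265). With the set, neither was called and the directions stayed opposite. Both calls were also lost on the values as deposited and after centring.

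Other lists showed little or no call. The typical macrophage activation miRNAs did not pass, with miR-155 at −0.08 (adjusted p = 0.836) and miR-146 at 0.13 (adjusted p = 0.62). Of 9 inflammation probes only miR-21 was called, and the list median was 0.16 without and 0.42 with the set. Of 5 myeloid probes, miR-223 rose, while miR-23a (−0.41) and the miR-24-2 a/p probe fell, and miR-27a was at −0.11. miR-142-3p and miR-142-5p, found in blood cells generally, were at −0.53 and 0.03. None of 11 probes of the miR-17-92 cluster and its paralogs was called.

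The let-7 family, which accumulates in differentiated cells, had no call among 12 probes, but its sign depended on the set. The median was 0.15 without the set, with 9 of 12 positive, and −0.34 with it. Among 8 p53-responsive probes only miR-145 was called, and the list median was −0.60. miR-34a, a direct p53 target in cells that have p53, was at −0.62 (adjusted p = 0.155). Of 19 -a probes of the Dlk1-Dio3 cluster, miR-679 alone was called (0.64), and of 11 -p probes miR-496 alone. No probe of the nervous system or pancreas lists was called.

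Whether a probe gave a value at all shifted in few cases. After C. parvum, 3 probes had at least 3 values and none in controls: the miR-128a -p probe, miR-135a and miR-153. In the other direction there were 11 probes, among them miR-302d with 5 control values and miR-204 and miR-489 with 4. The measured means of these 11 lay between 4.57 and 6.54, the dim end of the scale. The number of values per array overlapped between the groups, and its part in these counts was not tested.

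How far the DKO response differed from that of the other genotypes was tested as the DKO change minus the mean change of WT, NOS2KO and p53KO. Of 291 probes, 34 differed (11.7%), 18 with a higher (6.19%) and 16 with a lower value in DKO (5.5%). On the values as deposited the split was 35 and 11 (76.1% higher), and after centring 10 and 26 (27.8%). With the set in the fit, 4 of 290 were called (1.38%). C. parvum changed 34.5% of tested probes in WT, 25.7% in NOS2KO and 29% in p53KO, against 14.1% in DKO. Those shares come from different probe sets and different numbers of arrays and were not compared by a test.

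The difference that was largest against its error with the set was that of erythroid miR-451. Its level was 13.19 ± 0.75 in DKO C. parvum and 13.31 ± 0.25 in DKO control arrays (SD, n = 6 each), a change of −0.12. In WT it was 13.29 ± 0.35 after C. parvum and 11.56 ± 0.38 in controls (SD, n = 5 each), a change of 1.72. Its change was 0.83 in NOS2KO (adjusted p = 0.0632, not called) and 1.36 in p53KO (adjusted p = 0.00474). The DKO change was smaller than the mean of the others by −1.42 ± 0.36 (adjusted p = 0.00949), and by −2.19 ± 0.38 with the set (adjusted p = 0.000411). C. parvum 6 was at 11.72 and the other 5 treated DKO arrays between 13.15 and 13.72. Without that array the difference was −1.13 in the fit without the set (adjusted p = 0.0219), and the fit with the set was not repeated. The set term for miR-451 was itself called, at 0.96 ± 0.27 higher in set 2 (adjusted p = 0.0143). Within set 1, where C. parvum 6 was the only treated array, the DKO change was −1.56. Within set 2, where control 6 was the only control, it was 0.04. Against single genotypes, without the set, the difference was called against WT (−1.84, adjusted p = 0.0103). It was not called against NOS2KO (−0.94, adjusted p = 0.187) or p53KO (−1.48, adjusted p = 0.0788). The mean of the DKO controls lay near that of treated WT spleens, a comparison that was not tested.

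Erythroid miR-486 had its highest control mean in DKO. Its level was 13.98 ± 0.45 in DKO C. parvum and 13.12 ± 0.33 in DKO control arrays (SD, n = 6 each), against 14.45 ± 0.17 and 12.10 ± 0.53 in the WT groups of C. parvum and control (SD, n = 5 each). Its DKO change of 0.85 was not called (adjusted p = 0.112), and it was below the mean of the others by −1.60 ± 0.42 (adjusted p = 0.0125), or −1.32 with the set (adjusted p = 0.142). Against single genotypes it was called against p53KO alone (adjusted p = 0.0473). miR-144, which shares a transcript with miR-451, was at 0.09 in DKO.

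Of the 5 differences of smallest p, 2 were probes that fell in WT, NOS2KO and p53KO and were not called in DKO. miR-699 was at 8.37 ± 0.49 in DKO C. parvum and 8.54 ± 0.35 in DKO control arrays (SD, n = 6 each), against 8.27 ± 0.56 in treated and 10.51 ± 0.27 in control WT arrays (SD, n = 5 each). The difference was 1.46 ± 0.32 (adjusted p = 0.00466) and remained called with the set (1.66, adjusted p = 0.0166). miR-703 gave 1.48 ± 0.36 (adjusted p = 0.00949), and 1.42 with the set (adjusted p = 0.0935). Its DKO levels were 9.17 after C. parvum and 9.04 in controls, against 9.13 and 10.88 in WT. Against NOS2KO alone, neither was called (0.81, adjusted p = 0.204, for miR-699, and 1.26, adjusted p = 0.0807, for miR-703), and against p53KO alone miR-703 was not (adjusted p = 0.17). For both probes the DKO control mean lay near the means of treated arrays.

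The other 3 were probes with positive changes in WT, NOS2KO and p53KO. miR-7-2 was at 11.13 in DKO C. parvum and 11.14 in DKO control arrays, against changes of 1.34 in WT, 1.27 in NOS2KO and 0.89 in p53KO. The difference was −1.17 ± 0.25 (adjusted p = 0.00466), and −1.15 with the set (adjusted p = 0.0452), and it was not called against p53KO alone (−0.89, adjusted p = 0.17). The miR-24-2 -p probe differed by −0.94 ± 0.20 (adjusted p = 0.00466) and the miR-375 -p probe by −1.38 ± 0.31 (adjusted p = 0.00522). Neither was called with the set, at −0.82 and −0.96. As normalized, miR-706 was called only with the set (1.20, adjusted p = 0.0307). On the values as deposited its difference was also called without the set (0.85, adjusted p = 0.0146).

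Of the 11 kept probes, 9 could be tested for a difference from the other genotypes, and none of these was called in either fit. For miR-223 the difference was 0.57 (adjusted p = 0.0567), and 0.13 with the set (adjusted p = 0.739). Its changes elsewhere were 0.70 in WT, 0.22 in NOS2KO and 0.76 in p53KO. miR-342 changed by 0.12 in WT, 0.17 in NOS2KO and 0.45 in p53KO, and its DKO change exceeded their mean by 0.21 (adjusted p = 0.247). miR-218 and the miR-496 -p probe could not be tested, having too few values in other groups.

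**Figure D4:**
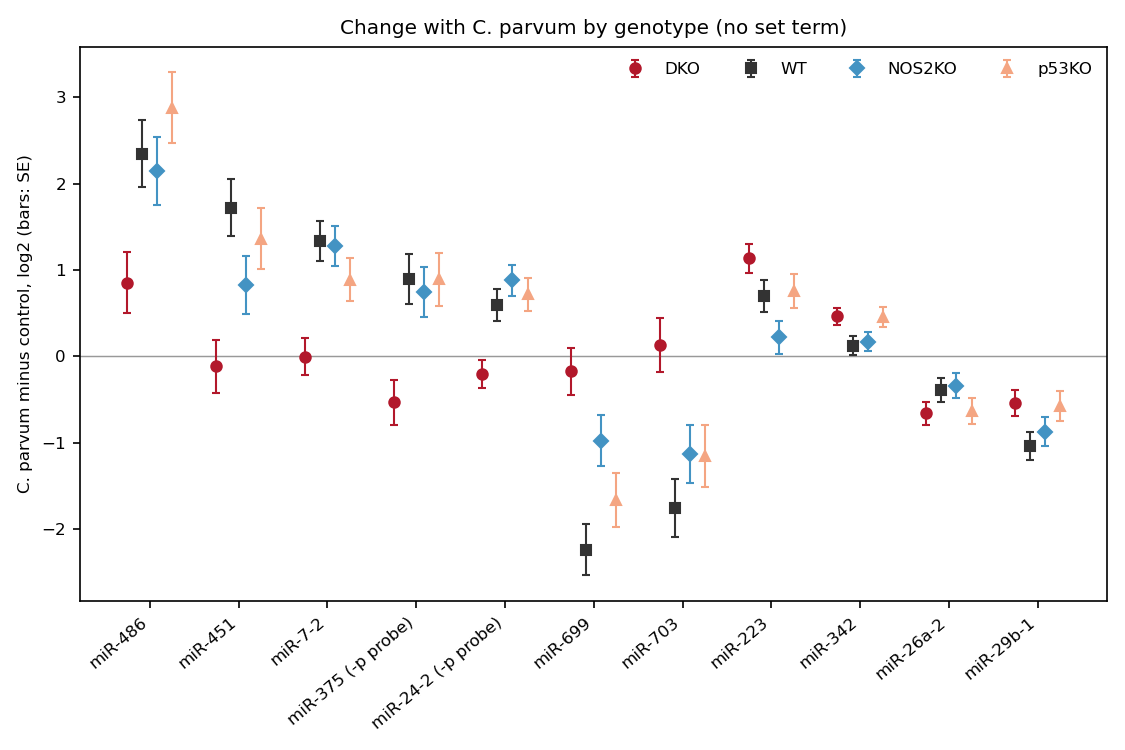
Change with C. parvum (log2, points with SE bars) by genotype without the set, DKO first and then WT, NOS2KO and p53KO. For miR-451, miR-7-2, miR-699 and miR-703 the DKO point lies near 0 and the others lie away from it, while for miR-26a-2 and miR-29b-1 all genotypes lie below 0.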

How the data were processed

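The authors deposited 1 table of processed values on a log2 scale, on 41 arrays. Background correction, normalization and scanner are not stated by the labels or the table. Its log base is not stated either and was inferred from the values (maximum 16.9), and every fold depends on it. Of all cells 40.4% hold no value.

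Array medians over 227 probes measured everywhere ranged from 9.87 to 10.6, so arrays were quantile-normalized, ranking each array from its brightest probe and leaving missing cells missing, below all measured ones. A shift common to all miRNAs would not be seen. The 8 group means were fitted over all 41 arrays with limma 3.58.1 in R 4.3.3, with Benjamini-Hochberg adjustment at 0.05 over all probes with 3 or more values in each group compared. The array set (deposited miR-370 below 10, or 10 and above) was then added as a 2-level term. The procedure was tested on simulated data with independent noise and the same set shift in every group. That test does not cover a set shift that differs between groups. The number of arrays limits the precision.

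Named probes are the 10 largest rises and falls, 1 probe per miRNA, every probe called with the set, the 5 smallest p in the comparison of genotypes, up to 4 members of each list and a preset group of miRNAs. Members and lists were chosen with earlier results of these data known. The hypoxia list (miR-210) had no -a probe tested, and its -p probe changed by 0.08, not called. Of the miR-34 list, the -p probes of miR-34b and miR-34c were at −0.88 and −0.08, not called. No liver probe (miR-122) was tested. Mature miRNA sequences and positions are from RefSeq (GRCm38.p6). Alternatives were the values as deposited, median centring and 5 or more values per group (4 in the smallest). Missing cells were also set at the 1st percentile of the normalized values. Further alternatives were array weights, leaving out each array, only DKO arrays, the set as a random block, and each set alone.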

Additional observations from a re-analysis of the deposited data

Results flagged for a closer look

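Single arrays far from the rest of their DKO group were found in 11 cases among the named probes, and 8 of the 11 concerned an array numbered 6. Chance gives about 1 in 20 groups, but that rate cannot judge this count. Many of the probes were named for their changes on the same arrays, and miR-370 defines the sets. On C. parvum 6, miR-370 was at 9.08 (the others 11.13 to 11.9), the miR-686 -p probe at 11.97 (5.55 to 6.69), miR-142-3p at 7.29 (8.79 to 9.34) and miR-451 at 11.72 (13.15 to 13.72). On control 6, miR-370 was at 11.31 (the others 8.92 to 9.23), the miR-326 -p probe at 8.56 (5.22 to 5.55), the miR-687 -p probe at 7.85 (4.32 to 5.23) and the miR-686 -p probe at 6.66 (10.37 to 11.69). Both arrays belong to the set opposite to the rest of their group. Apart from these, miR-26b was at 15.55 on control 3 (all others 15.98), miR-342 at 15.03 on control 2 (15.3 to 15.42) and miR-222 at 10.09 on control 5 (10.73 to 10.94).

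The DKO change differed from the mean change of the other 3 genotypes, by the test of that difference in limma, for the miR-24-2 -p probe (−0.94), miR-7-2 (−1.17), miR-699 (1.46), the miR-375 -p probe (−1.38) and miR-703 (1.48), all log2. With the array set in the fit, miR-699 and miR-7-2 were still called.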

How the results depend on the processing

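The count of 53 called probes in DKO was 27 on the values as deposited (23 shared), 31 with missing cells at the 1st percentile, 129 with array weights, 11 with the set as a term, 20 with the set as a random block, 1 within set 1 and 2 within set 2. Leaving out 1 array gave 26 to 61, with 26 and 27 when controls 3 and 4 were left out in turn, and 31 and 35 for C. parvum 2 and 5. The 11 calls with the set became 54 with array weights and 4 with only DKO arrays, and 8 to 29 with 1 array left out: 29 without control 6, 22 without control 5 and 20 without C. parvum 6. Of the kept calls, those of miR-29b, miR-218 and the -p probes of miR-801 and miR-496 were lost without C. parvum 6, and those of miR-223, miR-26a-2 and the miR-672 -p probe without control 6. The 34 differences from the other genotypes became 79 with array weights, 4 with the set, 16 against WT alone and 8 against p53KO alone, and 16 to 47 with 1 array left out: 16 without C. parvum 2 and 21 without control 2 or control 5. The cause was not tested for these shifts; fits within a set also have fewer arrays.

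Reversed changes were miR-429 (−0.11 with the set and within set 2), the miR-686 -p probe (0.2 with the set, 0.91 within set 1), the miR-687 -p probe (−0.1 within set 2), miR-181b-1 (0.01) and miR-203 (0.02), the last 2 within set 1.

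Same-numbered DKO arrays did not deviate together (correlations −0.17 to 0.22). What the numbers stand for is not stated, and in both groups number 6 was the array of the opposite set. With the replicate block in the DKO arrays 10 probes were called, against 50 without the block there. Array number, dim signal and the set term's reliance on 2 DKO arrays and 1 NOS2KO group limit what these arrays resolve.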
